A study of Mus musculus with 6 samples.

Results

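The genes described here are 10 genes of liver blood vessels: the leukocyte adhesion molecules Vcam1, Icam1 and Icam2, the selectins Sele and Selp, the junction molecules Pecam1 and Cdh5, and the sinusoidal receptors Stab1, Stab2 and Clec4g. They were chosen by name. Every probe set whose platform annotation gives exactly 1 symbol equal to one of these was taken. The 10 genes, of the 18193 named in this way in the table, hold 16 of its 45037 probe sets that are not array controls. Livers of 3 S1P lyase knockout (KO) mice were compared with livers of 3 wild-type (WT) mice, 1 Affymetrix array per animal, to ask which transcripts differ when the enzyme is missing. S1P lyase, encoded by Sgpl1, irreversibly breaks down sphingosine 1-phosphate (S1P), a lipid that endothelial cells sense through receptors such as S1pr1. Both groups had a mixed C57BL6 and 129sv background and received no treatment, and the labels give no age, sex or litter and do not say how the knockout was made.

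The liver sinusoid is lined by a fenestrated endothelium that takes up waste molecules through scavenger receptors such as the stabilins. Leukocytes leave blood vessels in steps: selectins slow them, and immunoglobulin-like molecules such as ICAM-1 and VCAM-1 then hold them by their integrins. Inflammatory cytokines are known to induce Vcam1, Icam1, Sele and Selp in endothelium through NF-kappaB, while Icam2, Pecam1 and Cdh5 are known as constitutive endothelial genes. Vcam1, Icam1 and Stab1 are also made by macrophages, and Selp and Pecam1 by platelets, so a level in whole liver is a sum over cell types. In whole tissue, fewer cells of a type and less RNA per cell cannot be told apart.

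The arrays carry several technical differences that run with genotype. The 24 probe sets of the bacterial poly-A controls, RNAs added before labelling, were brighter on every KO array than on any WT array, with a mean difference of 0.75 log2. For the control transcripts Actb, Gapdh and Pcx, probes near the 3' end exceeded those near the 5' end by 0.45, 0.47 and 1.01 log2 more in KO than in WT livers, with no overlap between groups (two-sided exact permutation p = 0.1 for each, the smallest that 3 arrays a group allow). Sgpl1, the targeted gene, averaged 2.78 ± 0.28 log2 in KO and 6.75 ± 0.13 in WT livers (SD, n = 3 each). On the deposited scale 18.6% of the 13370 genes tested were called, 10.5% upwards and 8.09% downwards (limma, Benjamini-Hochberg adjusted p under 0.05). With arrays centred on the poly-A controls every difference is lower by 0.75 log2 and the median difference over all genes is -0.80, against -0.05 as deposited. That centring also adds the spread of the control mean, SD 0.28 log2 over KO and 0.05 over WT arrays, to every gene alike. The fit treats this shared error as separate for each gene, so calls on the poly-A scale are too easily made. The part these differences play in the results below was not tested, and where a named gene changes its call or direction on the poly-A scale, that value is given beside it or with the limits of processing.

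Of the 10 genes, 9 had a probe set bright enough to test, and 6 of these 9 were called: Vcam1, Icam1, Selp, Stab1 and Stab2 rose in KO livers and Clec4g fell. Pecam1, Cdh5 and Icam2 did not pass, and Sele lay near the bottom of the array. Each gene was read by its brightest tested probe set, and a probe set was tested when its mean over the 6 arrays reached 3.58 log2, the 40th percentile. The median difference over the 9 genes was 0.45 log2, beside -0.05 over all genes tested. The values of KO and WT livers do not overlap in 7 of the 9 genes, beside 40.8% of all tested genes. The KO values lay above in 6, beside 19.0% of all genes, and below in 1, beside 21.8%. The count of called genes rested partly on single arrays, being 3 without KO replicate 1 and 3 without KO replicate 2. Vcam1, Icam1 and Stab1 were the genes still called in both cases. On the poly-A scale Vcam1, Icam1 and Selp were still called upwards and Clec4g downwards, Icam2 was called downwards at -0.84 log2, and Stab1 and Stab2 were not called, at 0.14 and -0.30.

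**Figure D1:**
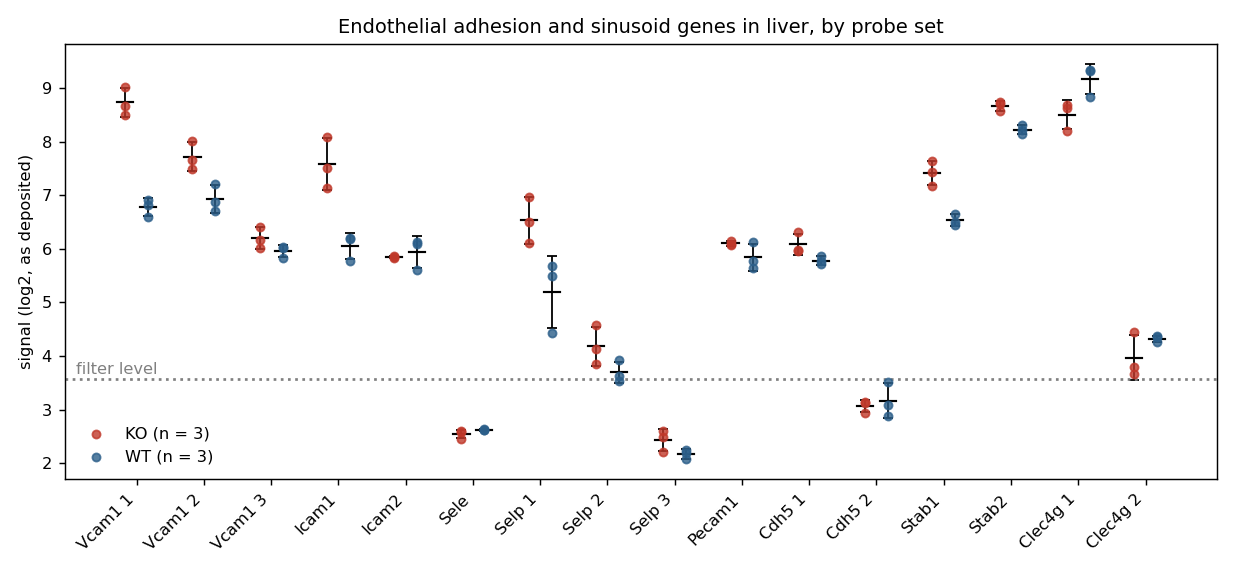
Deposited log2 signal of the 16 probe sets of the 10 genes in KO livers (red, left of each pair) and WT livers (blue, right), 3 animals each, with the mean and SD as black bars and the filter level of 3.58 log2 dotted. Where a gene has several probe sets they are numbered by brightness, and heights of different probe sets are not comparable. Vcam1 1, Icam1 and Selp 1 show wide gaps between the genotypes, and Clec4g 1 lies lower in KO.

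Vcam1, on chromosome 3, encodes the endothelial ligand of the integrin made by Itga4 and Itgb1. Its brightest probe set, 1448162_at, read 8.67, 8.50 and 9.03 log2 in KO livers and 6.59, 6.92 and 6.82 log2 in WT livers. All KO values lay well above all WT values. The difference was 1.95 log2 (SE 0.16, limma adjusted p = 0.000282), a 3.88-fold rise, with a 95% confidence interval of 1.58 to 2.33.

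The other Vcam1 probe sets moved less. Probe set 1415989_at read 7.49, 7.67 and 8.01 log2 in KO livers and 6.71, 7.21 and 6.87 log2 in WT livers, groups that do not overlap. It rose by 0.79 log2 (SE 0.18, limma adjusted p = 0.0206 over all tested probe sets). Probe set 1451314_a_at read 6.16, 6.01 and 6.42 log2 in KO livers and 5.83, 6.04 and 6.02 log2 in WT livers, which overlap, and its difference of 0.23 log2 (SE 0.14) did not pass. The distance between the brightest probe set and 1451314_a_at within an array was 2.54 ± 0.07 log2 in KO and 0.81 ± 0.06 log2 in WT livers (SD, n = 3 each). That distance was larger on every KO array (two-sided exact permutation p = 0.1). Where each lies along the Vcam1 transcript was not used here. The KO arrays are also those with the larger gap between 3' and 5' probes of control transcripts, and the part of that gap was not tested. With the 3 probe sets averaged, Vcam1 rose by 0.99 log2 (limma adjusted p = 0.00464), and on the poly-A scale its brightest probe set rose by 1.21.

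Icam1, on chromosome 9, encodes the ligand of the leukocyte integrins that contain Itgb2. Its 1 probe set, 1424067_at, read 7.14, 7.51 and 8.09 log2 in KO livers and 5.78, 6.19 and 6.21 log2 in WT livers. The KO values were spread over almost a full log2 unit and all lay above the WT values. Icam1 rose 2.87-fold (1.52 log2, SE 0.24, limma adjusted p = 0.00471), and was still called with any 1 array left out, at 1.27 to 1.74 log2. On the poly-A scale its rise was 0.77.

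Icam2, on chromosome 11, encodes a related ligand of the same integrins that resting endothelium carries. Probe set 1448862_at read 5.88, 5.84 and 5.85 log2 in KO livers and 5.61, 6.10 and 6.13 log2 in WT livers. The WT values lie on both sides of the KO values. The difference was -0.09 log2 (SE 0.16, 95% confidence interval -0.45 to 0.27, limma adjusted p = 0.703). Within an array Icam1 minus Icam2 was 1.72 ± 0.49 log2 in KO and 0.11 ± 0.05 log2 in WT livers (SD, n = 3 each). The difference of 1.61 log2 does not depend on an offset shared by a whole array, but effects that differ between probe sets remain in it. Icam1 minus Icam2 was larger on every KO array (two-sided exact permutation p = 0.1).

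The start region of Icam1 is shown because this gene rose and cytokine induction through NF-kappaB is known for it. The sequence is RefSeq's for build GRCm38.p6, chr9:21015690-21015989 on the + strand, 250 bases before to 50 bases after the annotated start. Capitals mark 2 motifs, the kB motif GGAAATTCC from base 98 to 106 and the TATA motif TATAAA from base 264 to 269. The kB motif begins 153 bases before the annotated start. TATAAA begins 13 bases after it, so it does not lie upstream of that start.
Icam1: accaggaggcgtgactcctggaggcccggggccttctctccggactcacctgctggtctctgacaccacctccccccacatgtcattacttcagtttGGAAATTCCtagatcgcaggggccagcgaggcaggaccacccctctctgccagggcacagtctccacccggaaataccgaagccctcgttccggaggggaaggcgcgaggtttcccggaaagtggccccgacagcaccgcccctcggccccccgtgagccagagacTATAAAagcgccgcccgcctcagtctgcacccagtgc
Both motifs were searched on both strands and do not overlap here. GGAAATTCC or its reverse complement occurs in 0.317% of the 32851 start regions of this length in the table, and TATAAA or its reverse complement in 13.6%. Of the 10 genes, 6 are in that table (Icam1, Sele, Selp, Stab1, Stab2 and Clec4g), and GGAAATTCC was found in 1 of them. Only this exact string was searched, so the count does not say which start regions hold other forms of a kB site. A match is a description of the letters, and binding was not measured.

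The selectin genes Sele and Selp both lie on chromosome 1 and differed in whether they could be read at all. Selp encodes P-selectin, which endothelial cells and platelets hold in storage granules and release to their surface. Its brightest probe set, 1420558_at, read 6.50, 6.98 and 6.11 log2 in KO livers and 5.67, 5.49 and 4.43 log2 in WT livers. The groups do not overlap, and WT replicate 3 lay more than 1 log2 unit below the other WT livers. Selp rose 2.51-fold (1.33 log2, SE 0.34, limma adjusted p = 0.0317). It no longer passed without KO replicate 1 (1.34 log2, adjusted p = 0.0892) or KO replicate 2 (1.11 log2, adjusted p = 0.111), and was 0.95 (adjusted p = 0.037) without WT replicate 3. On the poly-A scale its rise was 0.58.

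The dimmer Selp probe set 1449906_at read 4.14, 4.57 and 3.85 log2 in KO livers and 3.62, 3.92 and 3.54 log2 in WT livers. The groups overlap, and the difference of 0.49 log2 (SE 0.19, limma adjusted p = 0.111) did not pass. Within an array the brightest probe set stood 2.34 ± 0.07 log2 above it in KO and 1.51 ± 0.58 log2 in WT livers (SD, n = 3 each). The third Selp probe set, 1440173_x_at, lay below the filter level on every array, with means of 2.44 log2 in KO and 2.17 log2 in WT. Its suffix marks a kind of probe set that can read unrelated transcripts.

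Sele encodes E-selectin, which endothelium makes when cytokines act on it. Its 1 probe set, 1421712_at, read 2.61, 2.46 and 2.58 log2 in KO livers and 2.62, 2.62 and 2.64 log2 in WT livers. The KO values lie just below the WT values. The mean lies at percentile 13.1 of all probe sets, below the filter level, so its signal cannot be told from background. With no filter its difference was -0.08 log2 (SE 0.08, limma adjusted p = 0.558, 95% confidence interval -0.26 to 0.10). The start regions of both selectin genes are shown for comparison, since one gene rose and the other was not detectable. They are RefSeq's for build GRCm38.p6, chr1:164115014-164115313 for Selp and chr1:164047984-164048283 for Sele, both on the + strand. Capitals mark TATAAA, found in Sele from base 202 to 207 and on neither strand of Selp.
Selp: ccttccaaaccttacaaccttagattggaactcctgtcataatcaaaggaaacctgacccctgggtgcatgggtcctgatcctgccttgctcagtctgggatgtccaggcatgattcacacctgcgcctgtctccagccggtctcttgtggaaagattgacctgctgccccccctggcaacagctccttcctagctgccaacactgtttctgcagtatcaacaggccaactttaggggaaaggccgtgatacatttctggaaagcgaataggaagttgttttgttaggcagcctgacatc
Sele: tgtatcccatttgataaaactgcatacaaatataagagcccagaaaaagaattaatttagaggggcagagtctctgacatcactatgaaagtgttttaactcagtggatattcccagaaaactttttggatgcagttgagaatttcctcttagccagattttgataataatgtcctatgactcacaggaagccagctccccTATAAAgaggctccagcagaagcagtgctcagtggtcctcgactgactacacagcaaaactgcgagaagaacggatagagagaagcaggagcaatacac
The exact letters GGAAATTCC and their reverse complement are in neither window. Other forms of a kB site were not searched, so whether either window holds one was not tested.

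Pecam1 and Cdh5 encode molecules of the junctions between endothelial cells, PECAM-1 and VE-cadherin, and neither passed the test. Pecam1, on chromosome 11, read 6.15, 6.10 and 6.06 log2 in KO livers and 5.64, 5.77 and 6.12 log2 in WT livers on its 1 probe set, 1421287_a_at. WT replicate 3 lay within the KO range and the other WT livers below it. The difference was 0.26 log2 (SE 0.14, limma adjusted p = 0.233, 95% confidence interval -0.07 to 0.59). Cdh5, on chromosome 8, read 5.98, 6.32 and 5.96 log2 in KO livers and 5.71, 5.87 and 5.77 log2 in WT livers on its brighter probe set, 1433956_at. The groups do not overlap, but the difference of 0.31 log2 (SE 0.13, 95% confidence interval 0.001 to 0.61) did not pass (limma adjusted p = 0.143). The other Cdh5 probe set, 1422047_at, lay below the filter level, with means of 3.07 log2 in KO and 3.16 log2 in WT. On the poly-A scale both genes were lower in KO without passing, at -0.49 log2 for Pecam1 and -0.44 log2 for Cdh5.

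Cdh5 is made almost only by endothelium, and a distance from Cdh5 within an array does not depend on an offset shared by the whole array. Effects that differ between probe sets, such as the gap between 3' and 5' probes, need not cancel in it, and their part was not tested. The distance between Vcam1 probe sets 1448162_at and 1451314_a_at itself differed by 1.72 log2 between genotypes. Read by its brightest probe set, Vcam1 minus Cdh5 was 2.64 ± 0.44 log2 in KO and 0.997 ± 0.10 log2 in WT livers (SD, n = 3 each). Clec4g minus Cdh5 was 2.41 ± 0.28 log2 in KO and 3.39 ± 0.28 log2 in WT livers. For both pairs the groups do not overlap (two-sided exact permutation p = 0.1 each). The result for Vcam1 holds for that probe set only. Its other probe sets differed by 0.79 and 0.23 log2, beside 0.31 for Cdh5, and their distances from Cdh5 were not computed. Stab2 minus Cdh5 was 2.58 ± 0.14 log2 in KO and 2.44 ± 0.15 log2 in WT livers, a difference of 0.14 log2 (two-sided exact permutation p = 0.4), which is within the spread between livers. Because probe sets respond differently, the levels of such a distance have no meaning of their own, and its change between genotypes is what was compared. In all, 10 such distances between genes or probe sets were computed, and with 3 arrays a group none can pass 0.05, with or without adjustment over the 10.

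**Figure D2:**
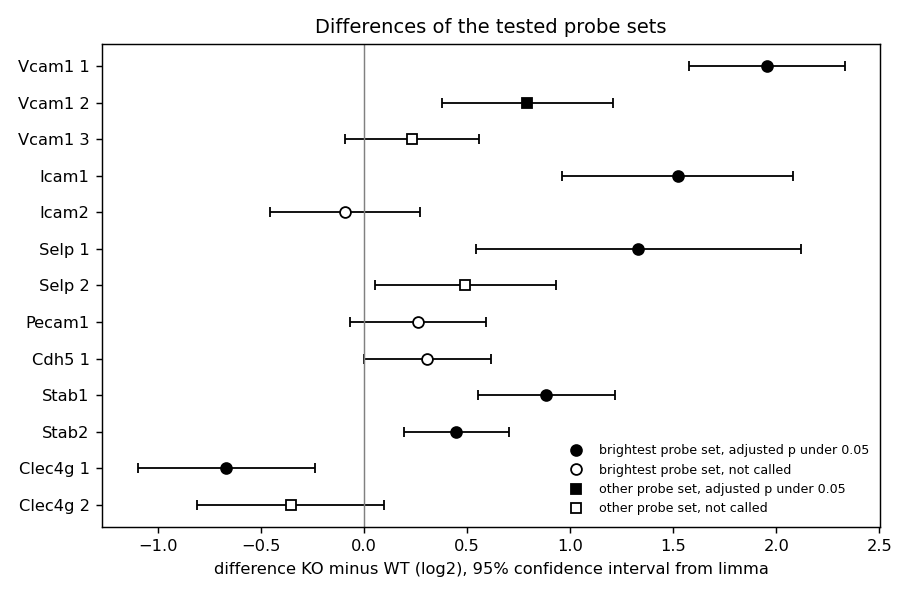
Difference KO minus WT (log2) of the 13 tested probe sets with the 95% confidence interval from limma. Circles are each gene's brightest probe set and squares its other probe sets, filled where the adjusted p was under 0.05: the 3 Vcam1 probe sets run from 0.23 to 1.95, and both Clec4g probe sets lie below 0.

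The sinusoidal genes moved in both directions. Stab1, on chromosome 14, encodes stabilin-1, a scavenger receptor of sinusoidal endothelium and of some macrophages. Probe set 1450199_a_at read 7.64, 7.43 and 7.18 log2 in KO livers and 6.44, 6.66 and 6.50 log2 in WT livers. All KO values lay above all WT values. Stab1 rose 1.85-fold (0.88 log2, SE 0.14, limma adjusted p = 0.0052), and was still called with any 1 array left out.

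Stab2, on chromosome 10, encodes stabilin-2, the receptor by which the sinusoidal lining clears hyaluronan. Probe set 1419423_at read 8.70, 8.75 and 8.57 log2 in KO livers and 8.21, 8.14 and 8.31 log2 in WT livers. The groups do not overlap and each was tight, with an SD of 0.09 in both. Stab2 rose 1.36-fold (0.45 log2, SE 0.11, limma adjusted p = 0.0269). Its call was lost without KO replicate 1 or 2 or WT replicate 1 or 2, at 0.41 to 0.44 log2, and with arrays centred on the pan-endothelial genes (0.36 log2, adjusted p = 0.0997). Stab2 and the targeted Sgpl1 share chromosome 10, with 678 annotated genes between them. Whether strain alleles carried along with the mutation reach that far was not tested. Stab1 minus Stab2 within an array was -1.25 ± 0.17 log2 in KO and -1.69 ± 0.18 log2 in WT livers (SD, n = 3 each), without overlap (two-sided exact permutation p = 0.1).

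Clec4g, on chromosome 8, encodes LSECtin, a C-type lectin of liver sinusoidal endothelial cells, and was the 1 gene of the 10 that fell. Its brighter probe set, 1427428_at, read 8.19, 8.62 and 8.69 log2 in KO livers and 9.33, 9.34 and 8.84 log2 in WT livers. WT replicate 3 came closest to the KO livers, and the groups do not overlap. Clec4g was 1.59-fold lower in KO (-0.67 log2, SE 0.19, limma adjusted p = 0.0416). It no longer passed without KO replicate 1 (-0.52 log2, adjusted p = 0.124), KO replicate 2 (-0.73, 0.0902), WT replicate 1 (-0.59, 0.122) or WT replicate 2 (-0.58, 0.113). The call was also lost with arrays centred on hepatocyte genes (-0.57, adjusted p = 0.0685) and with its probe sets averaged (-0.51, adjusted p = 0.0745). The dim probe set 1431575_at read 3.79, 3.67 and 4.45 log2 in KO livers and 4.35, 4.37 and 4.26 log2 in WT livers. These overlap, and the difference of -0.36 log2 (SE 0.20, limma adjusted p = 0.239) did not pass.

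Counted by probe set, 6 of the 13 tested probe sets rose, 1 fell and 6 did not pass, where 17.9% of all 27022 tested probe sets were called, 10.1% upwards and 7.82% downwards. All KO values lay above all WT values in 7 of the 13, beside 18.8% of all, and below them in 1, beside 21.2%. The risen ones belong to 5 genes, since 2 are of Vcam1. Probe sets of 1 gene share a transcript and are no replicates of each other.

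Among genes of endothelium in general, 13.0% were called, beside 18.6% of all genes. The list holds Kdr, Flt1, Tek and 21 others, and 23 were tested. Of these, 2 rose, 1 fell and 20 did not pass, with a median difference of 0.06 log2 beside -0.05 over all genes. Cd34 was below the filter level. The log2 of the list's summed signal was 11.1 to 11.3 in KO and 11.1 to 11.2 in WT livers. The mean of the list per array was 6.22 ± 0.10 log2 in KO and 6.13 ± 0.13 log2 in WT livers (SD, n = 3 each, two-sided exact permutation p = 0.4). Vwf, which encodes von Willebrand factor, the cargo of the granules that also hold P-selectin, rose 2.95-fold (1.56 log2, SE 0.30, limma adjusted p = 0.0103). It read 6.661, 6.382 and 5.530 log2 in KO livers and 4.597, 4.283 and 5.008 log2 in WT livers. Megakaryocytes and platelets also make Vwf. Of 9 tested genes of these cells, 3 rose (Ppbp, Pf4 and Itgb3) and 6 did not pass. That is 33.3% upwards, beside 10.5% of all genes. KO replicate 3 was the lowest KO liver for Vwf, Ppbp and Pf4, but the highest for Itgb3. The part of these cells was not tested. Vwf was 0.81 log2 higher in KO on the poly-A scale. Esam, a junction molecule, rose by 0.55 log2 (SE 0.15, adjusted p = 0.0385 by limma), and on the poly-A scale was lower in KO at -0.20 without passing. Cldn5, a claudin of tight junctions, fell by 0.64 log2 (SE 0.15, limma adjusted p = 0.0227). Flt1, a receptor for vascular growth factors, was at 0.53 log2 (SE 0.19) and did not pass, but was called with array quality weights (0.64, limma adjusted p = 0.0405). Poly-A centring left 15 of the 23 called downwards and 1 upwards. Esam and Cldn5 each lost the call without some single arrays, and Vwf kept it under all 16 alternatives. With arrays centred on the mean of this list, Vcam1, Icam1, Selp and Stab1 were still called upwards, at 1.87, 1.43, 1.24 and 0.79 log2, and Clec4g downwards at -0.76.

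Markers of the sinusoidal lining moved in both directions. Of 20 tested members besides the stabilins and Clec4g, 4 fell, 1 rose and 15 did not pass (median 0.06 log2). Called were 25% of them, beside 18.6% of all genes, with 20% downwards, beside 8.09%, and 5% upwards, beside 10.5%. The counts rested on single arrays: 1 fell and none rose without WT replicate 1, 3 fell and 3 rose without WT replicate 3, and 2 fell and none rose without KO replicate 1, 2 or 3 or WT replicate 2. Their summed signal was 11.7 to 11.8 log2 in KO and in WT livers alike. Aqp1, a water channel, fell by 1.01 log2 (SE 0.14, limma adjusted p = 0.00233). Wnt2, a Wnt ligand that central sinusoidal endothelium gives to hepatocytes, fell by 0.87 (SE 0.20), Ehd3, a membrane trafficking protein, by 0.59 (SE 0.15) and Gata4, the transcription factor that maintains the sinusoidal state, by 0.54 (SE 0.12). Wnt2, Gata4 and Ehd3 each lost the call without some single arrays, while Aqp1 kept it under all 16 alternatives. The 1 that rose was Maf, a transcription factor that macrophages also express, by 0.48 log2 (SE 0.13), and on the poly-A scale it was at -0.27 without passing. It lost the call without 5 of the 6 arrays in turn and with pan-endothelial centring (0.39). Maf was chosen after its values were seen. Poly-A centring left 14 of the 20 called downwards and none upwards. S1pr1, the endothelial S1P receptor, fell by 0.89 log2 (SE 0.16, limma adjusted p = 0.00697), at 6.66, 6.88 and 7.13 log2 in KO livers and 7.59, 7.94 and 7.81 log2 in WT livers.

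Among other adhesion and junction molecules, 2 of 18 tested rose, none fell and 16 did not pass (median -0.03 log2). Called were 11.1%, beside 18.6% of all genes. With poly-A centring 14 of the 18 fell and none rose (median -0.78), and with no filter 2 of 21 rose and 2 fell. None was called with pan-endothelial centring, or without KO replicate 1 or 2 or WT replicate 2 or 3. Those that rose were Alcam, an adhesion molecule of many cell types, by 0.54 log2 (SE 0.15) and F11r, a tight junction molecule, by 0.45 (SE 0.12), and on the poly-A scale both were lower in KO without passing, at -0.21 and -0.30. Alcam lost the call without 5 of the 6 arrays in turn and F11r without any 1 of them, and with its probe sets averaged F11r was at 0.098 (limma adjusted p = 0.571). Icam5, best known from neurons, and Jam2, of endothelial junctions, were at -0.32 and -0.35 and did not pass, but were called downwards on the poly-A scale, at -1.06 and -1.10.

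**Figure D3:**
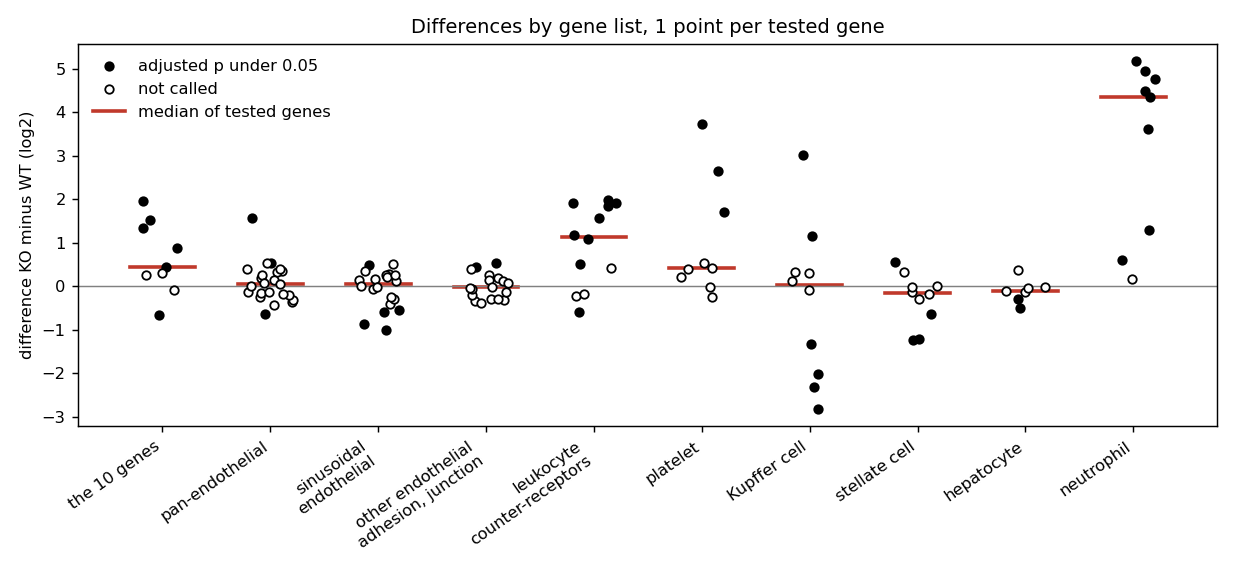
Difference KO minus WT (log2) of each tested gene, by list, filled where the limma adjusted p was under 0.05, with the median of each list as a red bar. The medians of the pan-endothelial, sinusoidal and junction lists lie near 0, that of the leukocyte counter-receptors at 1.13 and that of the neutrophil genes at 4.34.

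A list of genes for leukocyte integrins and glycoproteins that bind these adhesion molecules, and for enzymes that build selectin ligands, mostly rose in KO livers. Not all of its genes are particular to leukocytes. Of 12 tested, 8 rose, 1 fell and 3 did not pass, with a median difference of 1.13 log2 beside -0.05 over all genes. Risen were 66.7%, beside 10.5% of all genes. Their summed signal was 10.79 to 11.03 log2 in KO and 10.43 to 10.56 log2 in WT livers. Itga4, which with Itgb1 forms the receptor for VCAM-1, rose by 1.91 log2 (SE 0.15, limma adjusted p = 0.000245), while Itgb1, which hepatocytes and endothelium also express, was at -0.21 and did not pass. Itgb2, the shared chain of the ICAM-1 receptors, rose by 1.99 log2 (SE 0.19), and its partner Itgam by 1.57 (SE 0.11). Selplg, the ligand of P-selectin, rose by 1.84 log2 (SE 0.20). The 1 that fell, St3gal4, is a sialyltransferase that builds selectin ligands and is well expressed by liver, at -0.60 log2 (SE 0.14), a call lost without KO replicate 1 or 2 or WT replicate 1 or 3. Itgb7 and Fut7 did not pass, at 0.43 and -0.17. Itgb1, St3gal4, Itgb7 and Fut7 were chosen after seeing their values. With poly-A centring 5 of the 12 rose, 3 fell and the median was 0.38. There Itgb1 and Fut7 were called downwards, at -0.96 and -0.92, and Itgb7 was at -0.32 without passing.

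Some markers of other cells that make these molecules also differed between genotypes. Of 9 platelet and megakaryocyte genes, relevant to Selp, Pecam1 and Vwf, 3 rose and 6 did not pass (median 0.42 log2). Called were 33.3%, all upwards, beside 18.6% of all genes called and 10.5% upwards. With poly-A centring 3 rose and 3 fell (median -0.33). Those that rose were Ppbp by 3.73 log2 (SE 0.27), Pf4 by 2.65 (SE 0.33) and Itgb3 by 1.71 (SE 0.27), while Itga2b, the platelet integrin chain, was at 0.42 (SE 0.16) and did not pass. The log2 of the list's summed signal ran from 9.60 to 10.4 in KO and from 8.25 to 8.59 in WT livers. Of 10 genes of Kupffer cells, the liver's macrophages, relevant to Vcam1, Icam1 and Stab1, 4 fell and 2 rose (median 0.02 log2). That is 40% downwards, beside 8.09% of all genes, and 20% upwards, beside 10.5%. After poly-A centring 6 fell and 1 rose (median -0.73). Marco rose by 3.02 log2 and Cd5l by 1.15, and Clec4f, Vsig4, Cd163 and Timd4 fell by 2.82, 2.30, 2.02 and 1.32. Cd5l was at 0.40 on the poly-A scale without passing, and lost the call without KO replicate 1 or 2 or WT replicate 1. Cd5l, Timd4 and Cxcr2, a neutrophil gene, were chosen after seeing their values. The summed signal of this list was 12.2 to 12.3 in KO and 11.5 to 12.2 in WT livers on the log2 scale, ranges that overlap. Of 9 neutrophil genes 8 rose (median 4.34 log2), which is 88.9%, beside 10.5% of all genes. S100a8 was at 5.17, S100a9 at 4.94, Ngp at 4.76 and Ltf at 4.34, and Cxcr2 at 0.18 was the member that did not pass. After poly-A centring 7 rose and 1 fell, namely Cxcr2 at -0.57. The summed signal of the neutrophil list was 13.7 to 13.8 in KO and 9.09 to 9.39 in WT livers. The part of these cells in the differences of the 10 genes was not tested.

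**Figure D4:**
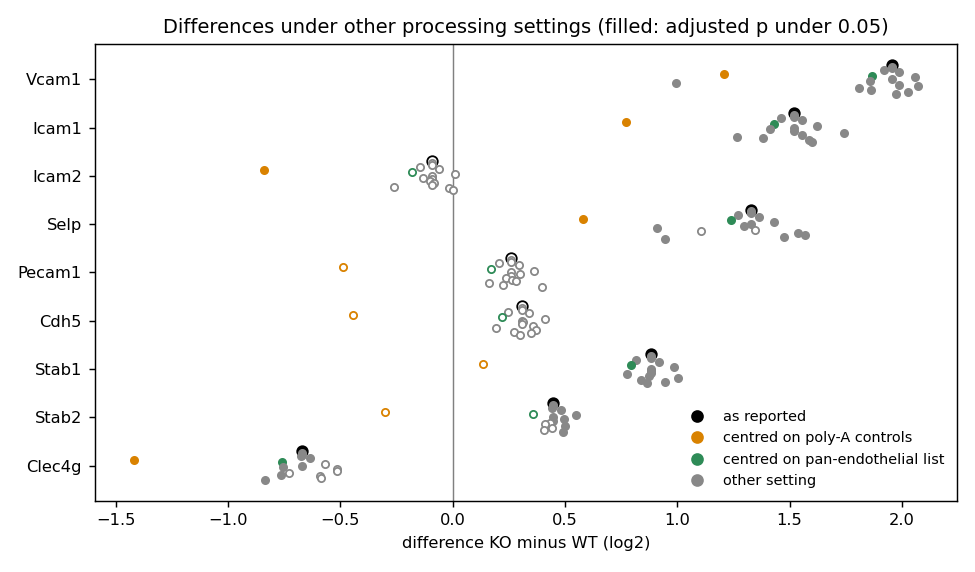
Difference KO minus WT (log2) of the 9 tested genes under each processing setting, filled where the limma adjusted p was under 0.05. Black is the value as reported, orange the value with arrays centred on the poly-A controls (Stab2 at -0.30 and Vcam1 at 1.21) and green the value with arrays centred on the pan-endothelial genes (Stab2 at 0.36 and Vcam1 at 1.87).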

How the data were processed

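Liver RNA was extracted with TRIzol, labelled with biotin and hybridised to 1 array per animal, per the labels' protocols. The authors deposited 1 log2 value per probe set and array. The submitters' processing notes name MAS5 without a role, and the sources used here do not give how background, scaling and probe summary were handled. No detection calls were used. The number of arrays limits the precision.

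After removal of 64 control probe sets and of those with a mean below the 40th percentile (3.58 log2), 27022 probe sets remained. The brightest of these with exactly 1 symbol stood for each of 13370 genes. Groups came from the genotype labels. KO was tested against WT in limma 3.58.1 under R 4.3.3 (lmFit, eBayes with trend, two-sided, Benjamini-Hochberg adjustment over all genes, threshold 0.05). Other probe sets of a gene were read from a like fit over all tested probe sets. Single values per array were compared by exact permutation. The fit was tested on 10 simulated data sets with normal noise and 200 changed genes each. Changes of 0.5, 1 and 2 log2 were called in 13.4%, 69.3% and 96.1% of cases, and 4.98% of calls were false. A gene that did not pass can therefore still differ by 0.5 log2 or more. Folds are powers of 2 of log2 differences. A summary that leaves background in would understate folds of dim genes.

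The 10 genes, the lists and the alternatives were chosen with earlier results of these data known, and lists are described by counts and medians without a set test. Named are all 10 genes, Sgpl1, S1pr1 and, from each list, up to 4 genes by lowest adjusted p, and others where the text says so. Alternatives were other filters, normalizations, centrings and variance models, averaged probe sets and leaving out each array. Start regions are RefSeq's for GRCm38.p6.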

Additional observations from a re-analysis of the deposited data

How the results depend on the processing

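No paired analysis was possible because the labels give no replicate numbers that the genotypes share. In all, 16 alternatives were run. Vcam1 and Icam1 were called upwards in all 16, at 0.99 to 2.07 and 0.77 to 1.74 log2. Stab1 was called in 15, Selp in 14, and Stab2 and Clec4g in 10 each. The number of the 10 genes called, 6 as reported, was 5 to 6 under the settings that keep all arrays and 3 to 6 with 1 array left out, lowest without KO replicate 1 or 2. The 2482 genes called over the whole table became 1339 to 2381 with 1 array left out, the 4835 probe sets became 2517 to 4639, and the 42 called genes of the lists became 29 to 38. These falls have fewer samples behind them. Centring on the poly-A controls gave 10497 genes, 21028 probe sets and 87 list genes. It lowers every difference by 0.75 log2 and adds an error shared by all genes that the fit does not model. These counts are therefore not comparable with those as deposited. On that scale the direction turned for Stab2 (-0.30), Pecam1 (-0.49), Cdh5 (-0.44), Alcam (-0.21), Esam (-0.20), F11r (-0.30), Flt1 (-0.22), Itga2b (-0.33), Pdgfrb (-0.20), Fgb (-0.38), Maf (-0.27) and Itgb7 (-0.32), none of them called there, and for Cxcr2 (-0.57), which was. The cause of the other changed calls was not tested. The split of all called genes was 377 higher and 10120 lower in KO with poly-A centring, 1899 and 658 with hepatocyte centring, 1081 and 1190 with pan-endothelial centring and 1400 and 1082 as deposited. Icam2, near 0 as reported, was at 0.010 with hepatocyte centring and at -0.26 to 0.0017 with 1 array left out, highest without WT replicate 3. Signals of Sele and of 1 probe set each of Selp and Cdh5 were too close to background for a difference to be detectable.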

Other observations

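Hepatic stellate cells lie against the sinusoidal endothelium, and of 10 of their genes tested, 3 fell, 1 rose and 6 did not pass (limma, median -0.16 log2). That is 30% downwards, beside 8.09% of all genes, and 10% upwards, beside 10.5%. On the poly-A scale 8 of the 10 fell and none rose (median -0.91). Lrat, which esterifies vitamin A for storage, fell by 1.24 log2 (SE 0.28), Ecm1, an extracellular matrix protein, by 1.22 (SE 0.17) and Reln, a secreted glycoprotein, by 0.64 (SE 0.12). Pdgfrb, the growth factor receptor of stellate cells and pericytes, rose by 0.55 (SE 0.14), lost the call without 5 of the 6 arrays in turn, and was lower in KO on the poly-A scale (-0.20, not called). The call was also lost with its probe sets averaged (0.18, limma adjusted p = 0.228), with quantile normalization (0.48) and with pan-endothelial centring (0.46). Hepatocyte genes, 7 of them tested, included 2 that fell and 5 that did not pass (median -0.11 log2). That is 28.6% downwards, beside 8.09% of all genes. On the poly-A scale 6 fell (median -0.86). Serpina1c fell by 0.49 log2 and Ttr by 0.29, and Lrat and Ttr each lost the call without some single arrays. In the hepatocyte list Fgb was at 0.37 and Apob at -0.14, and neither passed. Apob was called downwards on the poly-A scale (-0.89) and with its probe sets averaged (-0.38). Fgb was called upwards under 4 alternatives: quantile normalization (0.39), hepatocyte centring (0.47), median centring (0.40) and the filter at the 60th percentile (0.37). The log2 of the hepatocyte list's summed signal was 16.46 to 16.53 in KO and 16.58 to 16.62 in WT livers.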
